A study of Danio rerio with 2 samples.

Results

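Among the cells sorted from 24 hours post fertilisation (hpf) embryos of the zebrafish line Tg(mitfa:GFP), a small group carried the transcripts of skeletal muscle. These muscle-like cells are the cells given cluster number 8 in the authors' deposited cell table, and they numbered 153 of the 4735 cells kept there. The study asked how programmes of pigmentation and of proliferation divide between melanophores, and it sorted the dissociated embryos into a low GFP and a high GFP fraction, each sequenced as 1 droplet single-cell RNA-seq library. Both groups share the line and the age, no treatment is named for either, and the gate separates them. In this line the mitfa promoter, active in pigment cell precursors, drives GFP. All cells of both libraries were collected through a GFP gate, and why muscle-like cells are among them was not tested. The libraries hold no cells from an unsorted or GFP-negative fraction, and how many embryos were pooled is not given in the sources used here. With 1 library per gate no difference between the gates could be tested. Every interval below is a 95% interval for counting error alone, which leaves out the spread between embryos, sorts and libraries.

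Zebrafish trunk muscle arises from the somites, where the transcription factors encoded by myod1 and myog commit precursors and switch on the genes of the sarcomere, the repeating unit of actin thin filaments, myosin thick filaments and titin that contracts. The first fibres to differentiate are slow fibres, which descend from adaxial cells beside the notochord under Hedgehog signalling and the factor encoded by prdm1a. Fast fibres form later, by fusion of myoblasts, and use other isoforms of myosin, troponin and parvalbumin.

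The muscle-like cells made up 84 of 2361 cells of the low GFP library (3.56%, exact binomial interval 2.85 to 4.39%) and 69 of 2374 cells of the high GFP library (2.91%, 2.27 to 3.66%). The intervals overlap. They were deep cells. The median was 9634 unique molecular identifiers (UMIs, each counted as 1 captured transcript) per cell in the low library, with a range of 950 to 18457, against 5582 in its other cells. In the high library the median was 10488, with a range of 502 to 22698, against 6760 in its other cells. The number of genes per cell was close to that of the other cells, at a median of 1794.5 against 1620 in the low library and 1787 against 1842 in the high library. Mitochondrial transcripts took a median of 2.14% and 2.28%, and ribosomal protein genes took 41.0% and 39.5% of UMIs. No cell barcode among the muscle-like cells occurred in both libraries. Summed over cells, the low GFP group held 842177 UMIs and the high GFP group 698985, and levels are given as CPM, the share of a gene in this sum scaled to the usual total of 1000000. The reads were counted at the 3′ end, so levels of different genes were not compared with each other.

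All 5 genes set as markers of the group were abundant in it. The skeletal and cardiac alpha-actin gene actc1b was detected in 83 of 84 and 69 of 69 cells, with a median of 105 (0 to 869) and 108 (1 to 905) UMIs per cell. Its level was 16301 CPM (16029 to 16576) in the low library and 17478 CPM (17170 to 17791) in the high library, against 32.6 and 16 CPM in the other cells of each library. The myosin light chain gene myl1 stood at 4329 and 5734 CPM, the fast regulatory light chain gene mylpfa at 3150 and 4714 CPM, the troponin T gene tnnt2c at 3538 and 3195 CPM, and the muscle creatine kinase gene ckmb at 2321 and 2587 CPM. In the other cells each of these 4 genes was below 8 CPM. Detection was less even than for actc1b. A UMI of mylpfa was found in 62 low and 50 high cells, and one of ckmb in 75 and 57.

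The listed genes of heart, smooth muscle and head muscle were at or near 0, and genes on no list are not covered by this. Of 10 cardiac genes in the files 9 had no UMI in any muscle-like cell of either library, among them the cardiac myosin genes myl7 and myh6 and the natriuretic peptide gene nppa, and the tenth, tnni1b, had 4 and 2 UMIs. All 4 smooth muscle genes were at 0. The exact Poisson interval of this sum reached up to 4.38 CPM in the low and 5.28 CPM in the high library. The 6 head muscle genes summed to 5 and 9 UMIs. Of the lists for other cell types, the epidermal genes summed to 59 and 88 UMIs, the neuronal genes to 36 and 38, the blood and endothelial genes to 19 and 16, and the islet genes to 1 and 0, over all muscle-like cells. The mesenchyme genes were not low as a sum, with 669 and 592 UMIs, 794 and 847 CPM against 656 and 455 CPM in other cells. Of the 8 tested, 1 in each library was at least 2-fold higher, beside 7.77% and 8.41% of all genes. At least 2-fold lower were 4 (low) and 0 (high), beside 47.8% and 45.8% of all genes. Their median log2 ratios were -0.87 and 0.31. The neural crest genes summed to 226 and 250 UMIs, 268 and 358 CPM against 581 and 921 CPM. The part of both lists in the results was not tested.

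Set against all other cells of the same library, 786 of 10118 genes (7.77%) were at least 2-fold higher in the low library and 4837 (47.8%) at least 2-fold lower. In the high library these were 840 of 9983 genes (8.41%) and 4572 (45.8%). The cells were grouped by these same genes, so the counts describe the group and test nothing. All 49 genes of the sarcomere lists tested in the low library and all 50 in the high library were at least 2-fold higher, and the lists summed to 81761 and 86999 CPM against 806 and 697 CPM in the other cells. The 10 genes with the highest ratios were the alpha-kinase gene alpk3b, with log2 ratios of 10.48 and 10.86, the myosin light chain genes myl13 (9.60 and 9.90), myl1 (9.39 and 10.63) and myl10 (9.19 and 9.91), the kelch adaptor gene klhl40b (9.71 and 9.57), the troponin I gene tnni2b.1 (9.50 and 10.32), the phosphoglycerate mutase gene pgam2 (9.34 and 9.32), and asb12b (9.38 and 9.45), si:ch211-131k2.3 (9.35 and 9.58) and tulp1b (9.19 and 10.29). Several were not general to the group, since myl13 was found in 22 of 84 and 19 of 69 cells, and myl10 in 21 and 16.

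In several gene families the member that was high differed between muscle-like cells and the other sorted cells. The pairs named here were chosen after their values were seen. The HSP90 gene hsp90aa1.1, which folds myosin in zebrafish muscle, was at 2972 CPM (2503 UMIs) and 2811 CPM (1965 UMIs) against 6.08 and 5.58 CPM in other cells. Its general counterpart hsp90ab1 was at 1425 and 1918 CPM against 8409 and 8242, log2 ratios of -2.56 and -2.10. The glycolytic gene gapdh stood at 708 and 970 CPM against 6.08 and 4.27 CPM, whereas gapdhs had 1 and 8 UMIs in all. Muscle cadherin, cdh15, had 169 and 113 UMIs in the group, a level of 201 CPM in the low library against 1.00 in the other cells, and N-cadherin, cdh2, was at 82.0 and 58.7 CPM against 436 and 291. The splicing regulator gene rbfox1l had 530 and 495 UMIs, with 2.79 and 2.91 CPM elsewhere, and its relative rbfox2 had 26 and 21 UMIs.

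The machinery around the sarcomere was present as well. Calcium handling genes, which release and take back the calcium that triggers contraction, were at least 2-fold higher than in other cells for 16 of 16 tested genes (low) and 14 of 14 (high), beside 7.77% and 8.41% of all genes, and the list summed to 6387 and 7660 CPM against 34.9 and 26.3 CPM elsewhere. The release channel gene ryr1b was found in 55 and 41 cells, with 150 and 96 UMIs, and the junction protein gene srl in 77 and 59 cells, with 715 and 661 UMIs. Energy metabolism had 9 of 11 tested genes at least 2-fold higher in each library, against the same 7.77% and 8.41%, among them ckma (1602 and 1654 UMIs) and the adenylate kinase gene ak1 (754 and 855 UMIs). Lactate dehydrogenase, ldha, was not among them, at 71.2 and 71.5 CPM against 68.8 and 90.4 CPM. It was uneven within the group, at 316 and 286 CPM (36 and 22 UMIs) in the slow-rich cells described below. In the fast comparison cells set beside them it was at 43.1 and 33.4 CPM (4 and 4 UMIs).

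Genes for contact with nerve, matrix and neighbouring cells gave a mixed picture. All 6 tested genes of the neuromuscular synapse were at least 2-fold higher in both libraries, beside 7.77% and 8.41% of all genes. The acetylcholine receptor subunit genes chrna1, chrnd and chrng had 97 and 71, 95 and 77, and 113 and 125 UMIs, and the receptor-clustering kinase gene musk 67 and 57. Of the membrane complex, which ties the contractile apparatus to the matrix, 10 of 12 and 11 of 13 tested genes were higher, read against these same shares, with 174 and 242 UMIs of caveolin, cav3, and 63 and 37 UMIs of dystrophin, dmd. Of the fusion and adhesion list 4 of 12 and 4 of 11 tested genes were at least 2-fold higher and 7 and 4 at least 2-fold lower, beside 47.8% and 45.8% of all genes lower. Among the higher ones were mymk, which drives myoblast fusion, with 71 UMIs in 44 cells (low) and 61 UMIs in 32 cells (high), and jam2a with 192 and 153 UMIs. The collagen gene col1a1a, more often named for connective tissue, was at 254 and 279 CPM against 93.9 and 66.7 CPM in other cells, and the repressor gene snai1b had 148 and 135 UMIs.

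How much of its RNA a cell gave to the sarcomere varied over a wide range. The share of a cell's UMIs from the 79 sarcomere genes ran from 0.321% to 32.8% in the low library, with a median of 5.23%, and from 0.364% to 33.3% in the high library, with a median of 5.83%. The high cell at 0.364% was 1 of the cells rich in pigment cell transcripts described below, with 272 xanthophore UMIs. The other cells had medians of 0.0696% and 0.0601%. At the upper end 10 low and 8 high cells gave 20% or more of their transcripts to the sarcomere, and at the lower end 20 low and 13 high cells gave less than 2%. Any division of this order is a range and not a cell type.

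**Figure D1:**
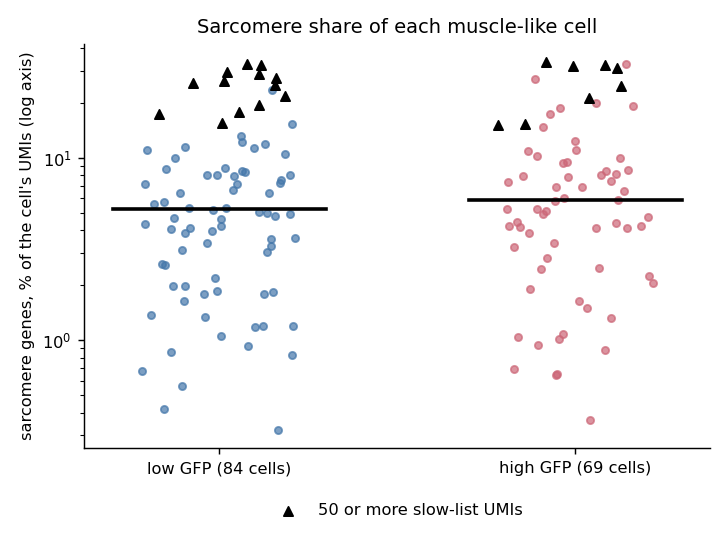
Share of each muscle-like cell's UMIs that came from sarcomere genes (%, log axis) in the low GFP (84 cells) and high GFP (69 cells) libraries; each point is 1 cell, bars mark the medians of 5.23% and 5.83%, and triangles mark cells with 50 or more UMIs of the slow fibre list. Both libraries cover about the same range, and the triangles sit in its upper part, at 15.1% and above.

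Transcripts of the later myogenic factor were found in most of the cells. The gene myog had 338 UMIs in 67 of 84 low cells, a level of 401 CPM (360 to 447), and 314 UMIs in 55 of 69 high cells, 449 CPM (401 to 502), with less than 1 CPM in the other cells. The earlier factor myod1 had 152 UMIs in 58 low cells, 180 CPM (153 to 212), and 114 UMIs in 45 high cells, 163 CPM (135 to 196). The related factors that act in early precursors and in late fibres were near absent, with 3 and 4 UMIs of myf5 and 1 and 3 UMIs of myf6. Among the partners of these factors, the MADS-box gene mef2d had 494 and 363 UMIs and mef2ca 418 and 242, and the cofactor gene eya1 had 617 and 388. Of the tested genes of the regulator list, 15 of 18 in the low and 14 of 15 in the high library were at least 2-fold higher than in other cells, beside the 7.77% and 8.41% of all genes, and 1 in each, rbfox2, was at least 2-fold lower.

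Genes of somite and muscle progenitors did not go one way. Of those tested against other cells, 1 of 13 was at least 2-fold higher and 6 lower in the low library. In the high library 4 of 11 were higher and 4 lower. Of all genes, 7.77% were higher and 47.8% lower in the low library, and 8.41% and 45.8% in the high library. The progenitor counts of the low library lay near these shares. The paired-box genes that mark them had 11 and 9 UMIs for pax3a, 7 and 4 for pax7a and 3 and 4 for pax7b. The somite genes meox1 and tcf15 had 20 and 24 and 16 and 19 UMIs, and the homeobox gene lbx2 had 23 and 16. The presomitic genes tbx6 and msgn1 had 0 and 1 UMI each. No gene of the list reached 50 UMIs over both libraries, and the list as a whole stood at 120 and 153 CPM against 314 and 467 CPM in the other cells. Those other cells include cluster 0, which carries neural progenitor genes. There pax3a stood at 161 and 173 CPM and pax7a at 35.1 and 51.8 CPM.

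Each library was ordered by the sarcomere share and divided into 3 tiers of about equal size, 28 cells each in the low and 23 each in the high library, and genes outside the sarcomere lists were measured against totals without sarcomere genes. The tiers differed in depth, with median UMIs per cell of 8484.5, 10413 and 10457.5 from the lowest to the highest tier in the low library and of 7686, 10635 and 11232 in the high library. The lowest tier of the high library held cells of 22698, 21148, 18499, 14686, 13596 and 11526 UMIs. All of these had Scrublet doublet scores in the highest 5%. Of the tier values, only those of myog, proliferation and energy metabolism were recomputed without such barcodes. The level of myog was highest in the lowest tier. It was 697, 377 and 229 CPM in the low library, a log2 ratio of highest to lowest of -1.61 (-2.07 to -1.16), and 756, 371 and 331 CPM in the high library (-1.19, -1.63 to -0.77). That of myod1 was 229, 183 and 178 CPM in the low library and 204, 136 and 199 CPM in the high library, with intervals of the ratio that include 0. For mef2ca the order was the opposite of that of myog, at 288, 557 and 793 CPM in the low library and 217, 375 and 566 CPM in the high library.

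The adhesion gene jam2a and the general chaperone gene hsp90ab1 were highest where the sarcomere share was lowest. The gene jam2a, which zebrafish myoblasts need for fusion, was at 406, 254 and 72.1 CPM in the low library and 380, 249 and 71.4 CPM in the high library. The fusion gene mymk had 24, 38 and 9 UMIs in the low tiers, so its middle tier was the highest. For hsp90ab1 the levels were 2845, 1301 and 462 CPM and 4353, 1275 and 499 CPM. The muscle chaperones followed neither course: hsp90aa1.1 was at 2826, 4015 and 2743 CPM in the low library and 2541, 4100 and 2533 CPM in the high library, and unc45b, the myosin co-chaperone gene, at 1080, 1269 and 852 CPM in the low library and 833, 1193 and 749 CPM in the high library. Both were highest in the middle tier of each library. The cell cycle inhibitor gene cdkn1ca was at 300, 162 and 93.3 CPM in the low library and 313, 118 and 138 CPM in the high library.

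Genes of calcium handling, energy supply and the synapse were highest in the highest tier. The calcium pump gene of the sarcoplasmic reticulum, atp2a1, was at 355, 1886 and 6003 CPM in the low library and 430, 2161 and 7106 CPM in the high library. Calsequestrin, casq2, which stores calcium there, was at 11.8, 187 and 1051 CPM and 13.6, 203 and 1060 CPM. Muscle creatine kinase ckma stood at 351, 1438 and 4685 CPM in the low library and 267, 1777 and 6127 CPM in the high library. Some genes were all but confined to the highest tier, with pgam2 at 0, 10 and 146 UMIs in the low tiers and 1, 14 and 118 UMIs in the high tiers. The acetylcholine receptor subunit gene chrnd was at 47.3, 113 and 216 CPM in the low library and 27.2, 136 and 209 CPM in the high library. As lists, energy metabolism had log2 ratios of highest to lowest tier of 3.23 and 3.54, calcium handling 3.84 and 3.96, the membrane complex 2.24 and 2.37, the neuromuscular synapse 2.11 and 2.03, the progenitor list -2.22 and -2.45 and the chaperone list -0.37 and -0.38. The highest tier held the slow fibre cells described below, and without them the energy ratio was 2.68 and 3.26 and the synapse ratio 1.54 and 1.58. For some genes those cells held most of the UMIs of the highest tier. Of the pgam2 UMIs of that tier, 104 of 146 (low) and 71 of 118 (high) were in those cells. The gene casq2 had 174 and 93 UMIs in them and chrnd 32 and 17, and the tier levels above include these. The parvalbumin gene pvalb4 had 169 and 117 UMIs in the highest tier with those cells and 0 and 1 without, and the release channel gene ryr1a 85 and 54 with them and 1 and 3 without. The histone methyltransferase gene smyd1a had 73 and 65 UMIs in the highest tier with them and 7 and 17 without. The RNA-binding protein gene rbm24a went from 445, 70.5 and 276 CPM in the low library to 479, 109 and 21.0 CPM without them.

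**Figure D2:**
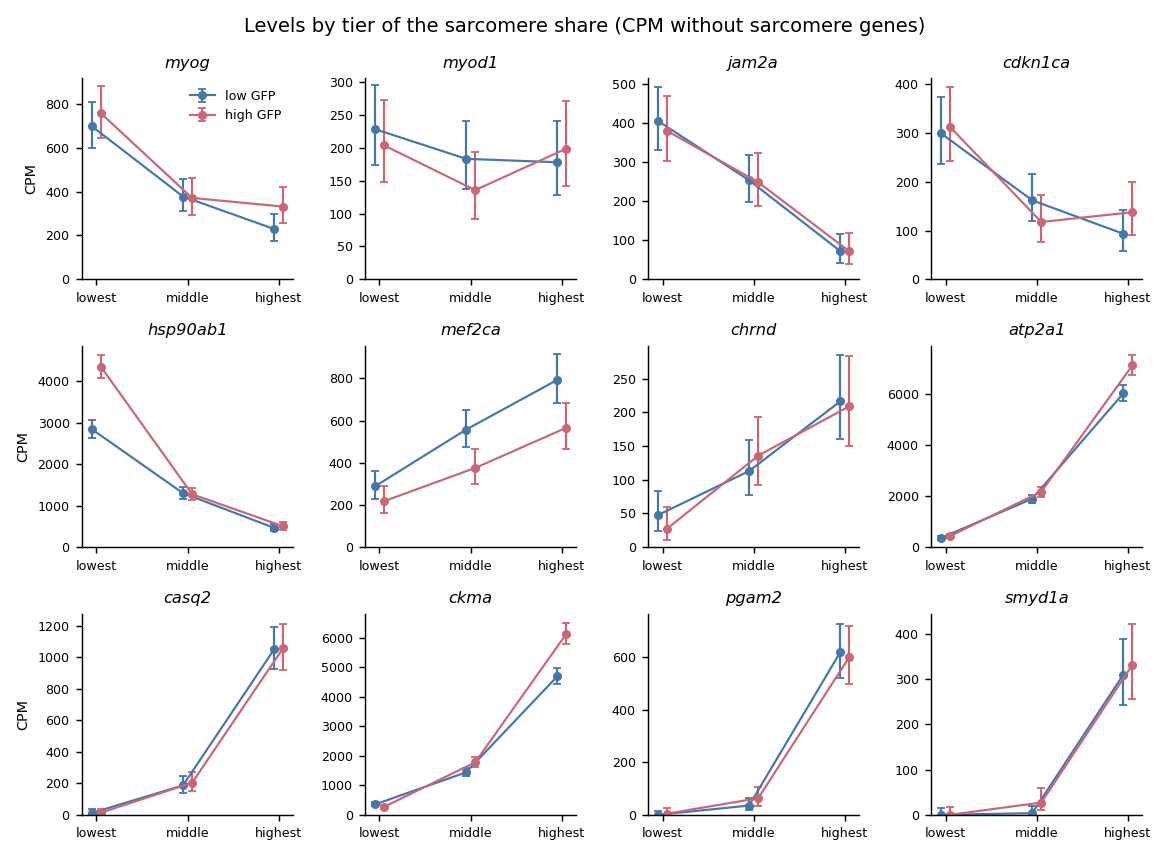
Levels of 12 genes (CPM on totals without sarcomere genes) in the lowest, middle and highest tier of muscle-like cells by sarcomere share, in the low GFP (blue, 28 cells per tier) and high GFP (red, 23 cells per tier) libraries; bars are exact 95% Poisson intervals for counting error. The level of myog is 697 CPM in the lowest and 229 CPM in the highest tier of the low library, while atp2a1 goes from 355 to 6003 CPM. The highest tiers include the cells with 50 or more slow fibre UMIs.

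Within the sarcomere the genes differed in how far their levels changed across the tiers. For this comparison each gene was left out of the share used to order the cells. Cells with 50 or more slow fibre UMIs, described below, were set aside. In the high library this left in cells with up to 29 slow fibre UMIs. Among the genes with small ratios were the actin gene acta1a, at 2095, 4516 and 4783 CPM in the low library and 2530, 4454 and 4719 CPM in the high library, and the titin gene ttn.1, at 1995, 4164 and 6580 CPM and 2077, 4368 and 6005 CPM. The ratios of highest to lowest tier were 2.28-fold and 1.87-fold for acta1a and 3.30-fold and 2.89-fold for ttn.1. The actin gene actc1b had a wider range, at 3086, 10387 and 26939 CPM in the low library, 8.73-fold, and 3518, 12671 and 32727 CPM in the high library, 9.30-fold.

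Some fast isoform genes had far wider ranges. The fast light chain gene mylpfa was at 137, 1652 and 9270 CPM in the low library, 67.7-fold, and 448, 3518 and 12834 CPM in the high library, 28.7-fold. Its share of cells with a UMI was 33.3, 91.7 and 100% in the low library and 33.3, 85.0 and 90% in the high library. Shallow cells with 29 and 7 slow fibre UMIs, in the highest tier of the high library, had no mylpfa UMI. The troponin I gene tnni2a.4 had 0, 25 and 452 UMIs in the low tiers and 11, 87 and 702 in the high tiers. The calcium buffer gene pvalb2 had 0, 34 and 663 UMIs and 7, 43 and 1065 UMIs, and the second light chain gene mylpfb 0, 1 and 145 and 0, 7 and 311. These 3 genes had 0 UMIs in the lowest tier of the low library. Not every gene of the fast list was of this kind, since tnni2b.1 was 4.08-fold and 5.63-fold higher in the highest than in the lowest tier. Nor were steep ratios limited to the list, since the actin-binding gene xirp2a had ratios of 23.5-fold and 40.3-fold and the actinin gene actn3a of 37.8-fold and 15.4-fold.

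A small set of cells carried the slow fibre programme. Cells with 50 or more UMIs of the 11 slow fibre genes, here called slow-rich, numbered 13 of 84 in the low library (15.5%, 8.51 to 25%) and 8 of 69 in the high library (11.6%, 5.14 to 21.6%). This value of 50 was set after the counts were seen. In the low library no cell lay between 7 and 51 slow UMIs. In the high library 6 cells lay at 10 to 29 UMIs and none between 29 and 82. The slow-rich cells had 51 to 1010 slow UMIs in the low library, with a median of 684, and 82 to 1246 in the high library, with a median of 706.5. Slow myosin heavy chain, smyhc1, had 2 to 262 UMIs per slow-rich cell in the low library and 14 to 304 in the high library, and at most 1 and 6 UMIs in any other muscle-like cell. The fate factor gene prdm1a was detected in 8 of 13 slow-rich and 5 of 71 other cells in the low library, and in 3 of 8 and 8 of 61 in the high library. Its UMIs are counted among the slow fibre UMIs, so these shares describe the choice in part. The highest prdm1a counts of the high library, 6 and 5 UMIs, were in cells below the limit, with 10 and 14 slow UMIs, prdm1a included. Among slow-rich cells there the highest count was 3. How the cells below the limit relate to the slow-rich cells was not tested.

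**Figure D3:**
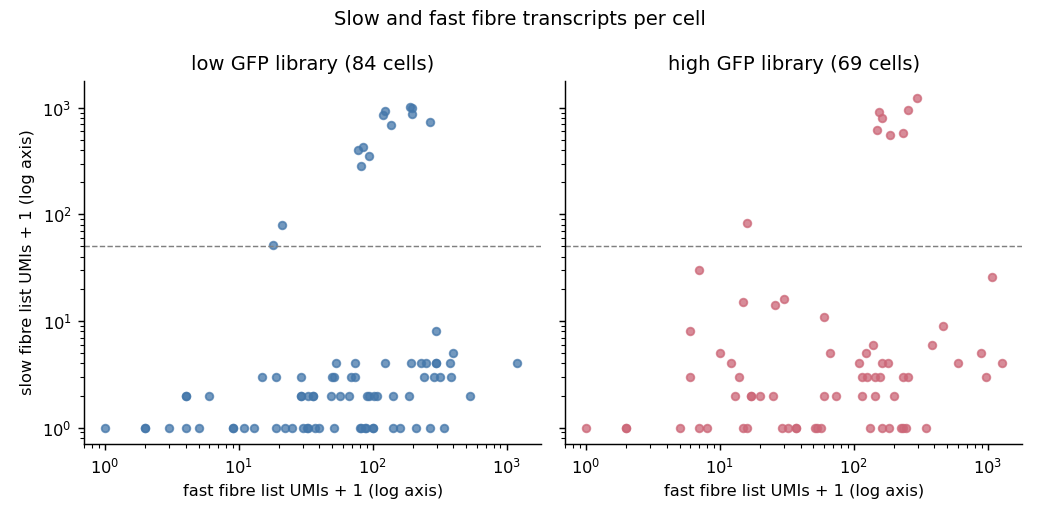
UMIs of the slow fibre list against UMIs of the fast fibre list in each muscle-like cell of the low GFP (84 cells, left) and high GFP (69 cells, right) libraries, both + 1 on log axes; the dashed line marks 50 slow fibre UMIs. In the low library 13 cells lie above the line and no cell between 7 and 51 slow UMIs, whereas in the high library 8 cells lie above it and 6 cells have 10 to 29 slow UMIs.

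Slow-rich cells had higher median sarcomere shares, with overlapping ranges: they held 15.6 to 32.8% in the low library (median 25.7%) and 15.1 to 33.3% in the high library (median 27.9%), against medians of 4.60% and 5.10% in the other muscle-like cells, which reached 23.5% and 32.5%. They were set beside the cells of like share, those that were not slow-rich and had 10% or more sarcomere UMIs, 9 and 11 cells, here called fast comparison cells. Their shares were 10.5 to 23.5% and 10.2 to 32.5%, with medians of 11.9% and 17.3%, still below those of the slow-rich cells. Of them 1 low and 3 high cells had under 2000 UMIs, at 1786 and at 502 to 1055. Shallow cells set the upper end of the range in the high library, and 2 of the 3 held more slow than fast list UMIs (29 against 6 and 7 against 5) while short of the 50 slow UMIs. Without cells under 2000 UMIs, 11 slow-rich and 8 fast comparison cells were left in the low library and 7 and 8 in the high library, the fast comparison shares were 10.5 to 23.5% and 10.2 to 19.9% with medians of 12.1% and 13.5%, and smyhc1 was at 0 in all of them. The slow cells were chosen by slow fibre genes, so the values of genes on that list describe the choice. Several of these genes, among them smyhc1, myl13 and tnnc1b, are also counted in the sarcomere share. The higher shares of slow-rich cells therefore describe the choice in part. The myosin gene smyhc1 had 1556 UMIs in slow-rich and 0 in fast comparison cells of the low library and 1337 and 2 in the high library.

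Genes outside the slow fibre list also differed between these cells. Of the genes named here, tnni4b.2, hhatlb and, below, sox6 are on no list and were among those that differed most between these same cells. Their values describe the division and do not test it. The light chain gene myl10 had 5158 UMIs in slow-rich and 0 in fast comparison cells of the low library and 3616 and 40 in the high library, where 1 cell under 2000 UMIs held all 40. Without such cells these counts were 5053 and 0 and 3568 and 0. The tropomyosin genes tpm2 (1538 against 2 and 1052 against 22 UMIs) and tpm3 (1007 against 0 and 826 against 13) went the same way. So did the troponin I gene tnni4b.2 (414 against 0 and 245 against 1) and the parvalbumin gene pvalb4 (169 against 0 and 116 against 1). Among genes of no filament, rbm24a had 63 against 1 and 21 against 4 UMIs and hhatlb 83 against 0 and 58 against 0.

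The opposite side held the fast isoforms. Those on the sarcomere lists, among them myl1 and mylpfa, are counted in the share that chose the fast comparison cells. Their values describe the choice in part. The light chain gene myl1 had 1 UMI in slow-rich and 1034 in fast comparison cells of the low library and 86 and 1569 in the high library. Of the 86, 85 were in 1 cell, which also held 37 mylpfa UMIs. For mylpfa these counts were 19 and 1255 in the low and 80 and 1830 in the high library, and for pvalb2 0 and 575 and 0 and 1004. The transcription factor gene sox6, a repressor of slow fibre genes in zebrafish fast muscle, had a UMI in 2 of 13 slow-rich and 9 of 9 fast comparison cells in the low library and in 1 of 8 and 9 of 11 in the high library. The factor myog was lower in slow-rich cells too, at 7 against 24 and 8 against 47 UMIs, log2 ratios of -2.07 and -1.92.

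Several genes of the contractile apparatus were at like levels on both sides. The log2 ratio of slow-rich to fast comparison cells was -0.08 and -0.09 for actc1b and 0.14 and -0.06 for ckmb. Of the fast fibre list, tnni2b.1 (0.43 and 0.42) and atp2a1 (0.01 and 0.45) did not separate the cells. In slow-rich cells tnni2b.1 had 903 and 640 UMIs and atp2a1 613 and 596. The marker tnnt2c was higher in slow-rich cells, with log2 ratios of 1.34 and 1.91.

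**Figure D4:**
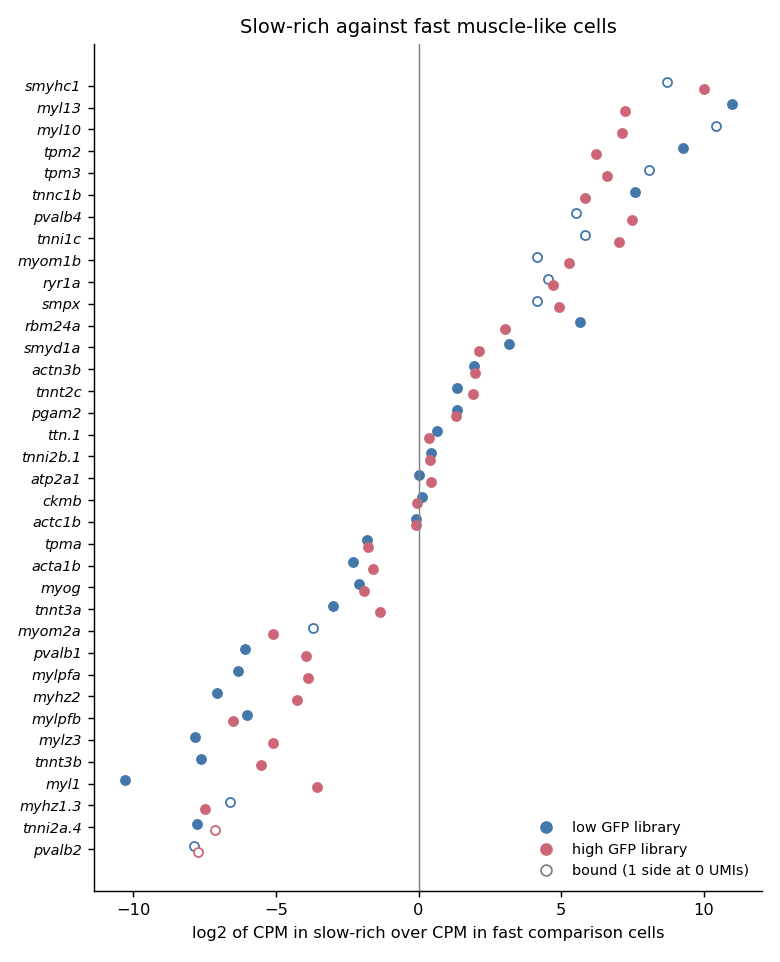
Log2 ratio of CPM in slow-rich cells to CPM in fast comparison cells for 36 genes, in the low GFP library (blue, 13 against 9 cells) and the high GFP library (red, 8 against 11 cells); open points are bounds, with 3 UMIs in place of a side at 0. Genes such as myl13 and tpm2 lie far to the right and pvalb2 and tnni2a.4 far to the left in both libraries, with actc1b at -0.08 and -0.09.

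Between the gates most genes of the muscle-like cells lay at like levels. Of 2424 genes with 50 or more UMIs over both libraries, 36 (1.49%) were at least 2-fold higher in the high GFP library and 16 (0.66%) at least 2-fold lower, and 87.4% were within 1.5-fold. The median log2 ratio of high to low was 0.04. For 484 of the 2424 genes the counting-error interval of the log2 ratio excluded 0. Scaling by the median of ratios instead gave 24 higher and 25 lower, and TMM scaling 34 and 18. Leaving out the barcodes with the highest Scrublet doublet scores, with the scaling unchanged, gave 20 and 23. The split between higher and lower genes thus varied with the setting. Muscle lists lay near the median of all genes: the median log2 ratio was 0.08 for the thin filament, -0.05 for the Z-disc and elastic filament, 0.07 for calcium handling, -0.15 for the regulators and -0.03 for the synapse, and each of these 5 changed sign under at least 1 alternative. It was 0.41 for the thick filament, 0.25 for energy metabolism and 0.61 for the fast fibre list, of which 3 of 12 genes were at least 2-fold higher and 1 lower. The 3 were mylpfb (148 against 320 UMIs, log2 ratio 1.38), tnni2a.4 (479 against 800, 1.01) and myhz1.1 (128 against 225, 1.08), and the 1 was myhz1.2 (72 against 27, -1.15). For these genes 5 cells of a library held 63.7% or more of the UMIs.

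The genes with the highest ratios were pigment cell genes and 1 sarcomere gene. The first enzyme of pteridine pigment synthesis in xanthophores, gch2, went from 2 UMIs in the low library to 307 in the high one, a log2 ratio of 7.53 (5.67 to 10.58), and 261 of the 307 were in 1 cell. CABZ01021592.1 had 7 and 183 UMIs (4.98), 152 of them in 1 cell, the aldo-keto reductase gene akr1b1.1 had 3 and 53 (4.41) and the tetraspanin gene tspan36 had 18 and 60 (2.01). The titin cap gene tcap had 24 and 190 UMIs (3.25, 2.64 to 3.93). Its UMIs were in few cells, with 165 of the 190 in 5 cells at 66, 39, 29, 19 and 12, 2 of which were slow-rich. The median muscle-like cell of each library had 0 tcap UMIs.

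At the other end were the ribosomal protein gene rpl26, with 991 and 43 UMIs (-4.26), ARF5, a small GTPase gene, with 50 and 13 (-1.67), mxra5b with 39 and 12 (-1.43), the collagen chaperone gene serpinh1b with 90 and 29 (-1.37) and arhgap35a with 52 and 18 (-1.26). For rpl26 the log2 ratio in all other cells was -4.00, so its difference was not particular to muscle-like cells.

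**Figure D5:**
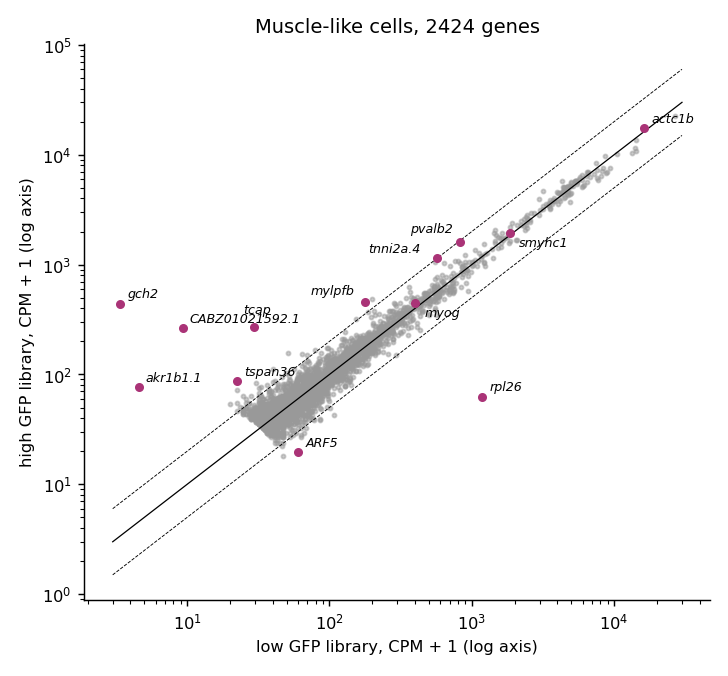
Level of each of 2424 genes in the muscle-like cells of the low GFP (horizontal) and high GFP (vertical) libraries, as CPM + 1 on log axes; the solid line is equality and the dashed lines mark 2-fold. Most genes lie between the dashed lines, gch2, CABZ01021592.1, akr1b1.1 and tcap lie far above them, and rpl26 (991 against 43 UMIs) lies far below.

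Cells rich in pigment cell transcripts were few. At least 1 melanophore UMI was found in 15 low and 28 high cells and at least 1 xanthophore UMI in 21 and 44. The gene behind the reporter's promoter, mitfa, had 10 UMIs in 3 of 84 low cells (3.57%) and 31 UMIs in 8 of 69 high cells (11.6%). Among cluster 0 cells, which carry neural progenitor genes, the shares with a mitfa UMI were 0.50% and 2.61% at median depths of 4559 and 4447 UMIs. Shares were repeated with cells thinned to 5646 UMIs, and cells below that depth were left out. This left out 4 of 84 low and 12 of 69 high muscle-like cells. In cluster 0 it left out 681 of 1001 and 537 of 767 cells, and in cluster 2 114 of 265 and 89 of 199. Only the deeper cells of those clusters thus entered the thinned shares. These were 2.5% and 7.02% in muscle-like cells, 0.62% and 3.04% in cluster 0 and 0.33% and 6.36% in cluster 2. In the high library the thinned muscle-like share was close to that of cluster 2. In 1 low and 3 high cells 20 or more UMIs came from melanophore or xanthophore genes. The low cell had 21 melanophore UMIs, 8 of them mitfa, and the 3 high cells had 77, 31 and 23, the last with 272 xanthophore UMIs. All 4 were among the 5% of barcodes with the highest Scrublet doublet scores of their library. Without these 4 cells mitfa had 2 and 5 UMIs and the log2 ratios were 4.72 for gch2 (2 against 42 UMIs), 2.11 for CABZ01021592.1 and 0.68 for tspan36, while that of tcap was 3.31. The share of cells with a gch2 UMI went from 2.38% (low) to 46.4% (high), or 2.5% and 26.3% when thinned, and in cluster 0 it was 7.39% and 38.7%, or 7.50% and 30.9% thinned. In cluster 2 the thinned gch2 shares were 6.62% and 38.2%. The thinned gch2 shares of muscle-like cells were thus at or below those of both clusters, and no expression is read from them.

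The neural crest factor gene foxd3, which is also transcribed in zebrafish somites, did not follow this course. A UMI of it was found in 27 of 84 cells of the low library (32.1%) and 33 of 69 of the high (47.8%), or 22.5% and 33.3% when thinned, against 2.00% and 2.09% of cluster 0 cells, or 0.94% and 2.17% thinned.

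Transcripts of proliferation genes were few in muscle-like cells. The 16 genes of the proliferation list summed to 182 UMIs (216 CPM) for the low and 260 UMIs (372 CPM) for the high gate, against 2617 and 1726 CPM in the other cells, and all 16 were at least 2-fold lower in both libraries, beside the 47.8% and 45.8% of all genes. No proliferation UMI was found in 34 low and 37 high cells. The 5 highest cells held 60.4% and 80.0% of the UMIs, and 3 and 5 of these were among the barcodes with the highest Scrublet scores. After thinning, 14.4% (low) and 16.7% (high) of the muscle-like cells deep enough to be thinned had 2 or more proliferation UMIs. Of the cluster 0 cells deep enough, 97.8% and 98.7% did. Without the barcodes of highest score the level was 137 and 79.1 CPM, and the log2 ratio of high to low for pcna, the replication clamp gene, went from 1.49 to -1.77. Those barcodes held 9 of 84 (10.7%) and 12 of 69 (17.4%) muscle-like cells, against 4.30% and 4.25% of the other cells, and the part of doublets in these counts was not tested.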

How the data were processed

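Droplet single-cell RNA-seq (10x 3′ chemistry) had been run on the low and high GFP fractions. The authors deposited filtered matrices of whole-number UMI counts per gene and cell, made with Cell Ranger 6.1.2 on GRCz11 per the submitters' processing notes, and a table of kept cells and clusters. That table kept 2361 of 2671 low and 2374 of 2605 high barcodes, and 12 of its columns were not used. An aggregated matrix of both libraries served as an alternative.

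Counts were summed over the muscle-like cells of each library and divided by their total (CPM). Ratios, with exact conditional 95% intervals, were computed for genes with at least 50 UMIs, called at 2-fold, with 3 UMIs in place of a side at 0. Shares have exact Clopper-Pearson intervals and sums exact Poisson intervals. Shares of cells with a UMI were repeated with cells thinned to 5646 UMIs, the 10th percentile of the muscle-like cells (median of 20 draws). Cells below that depth were left out, which removed more of clusters 0 and 2 than of the muscle-like cells. Of 422 listed genes 410 were in the files, and for 4 symbols with more than 1 identifier the one with most UMIs was used. The genes named were the 5 markers, the 10 highest against other cells at 50 CPM or more, the 5 highest and 5 lowest between gates, and list members. The unlisted tnni4b.2, hhatlb and sox6 were among the genes that differed most between slow-rich and fast comparison cells. The cells and lists were chosen with earlier results of these data known. The limits of 50 slow fibre UMIs, 10% sarcomere share and 20 pigment UMIs and the lists of Hox genes and of paralogue pairs were added after the values were seen.

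Scrublet, run in scanpy 1.11.5, called 3 and 7 cells (0.127% and 0.295%), of which 1 and 3 were muscle-like. So few calls were not relied on, and a run without the 5% of barcodes that scored highest was added. The median score of muscle-like cells was 0.040 (low) and 0.062 (high), against 0.041 and 0.033 in other cells. The labels name no doublet removal. Sums and intervals were made with scipy 1.17.1 and numpy 2.4.6 under Python 3.11.15 (tables with pandas 2.3.3). TMM scaling factors came from edgeR 4.0.16 (R 4.3.3), used for nothing else. The code was tested on simulated data.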

Additional observations from a re-analysis of the deposited data

Results flagged for a closer look

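Barcodes that the authors' cell table left out also carried muscle transcripts. Counted were barcodes with 20 or more sarcomere UMIs and a sarcomere share of 2% or more. In the low GFP library they were 35 of 310 left-out barcodes (11.3%, exact binomial interval 7.99 to 15.4%). The high GFP library had 23 of 231 (9.96%, 6.42 to 14.6%). Approximate limits used for a count of 0 were 0.968% and 1.3%. Among kept cells 64 and 56 met the rule of 20 UMIs and 2%, all of them muscle-like. The left-out barcodes had a median mitochondrial share of 8.90% and 10.1%, and 24 and 17 of them had 5% or more. The slow fibre genes reached 50 UMIs in 13 and 8 of them, with 150 to 1117 and 223 to 764 slow UMIs per barcode. These counts equal those of the slow-rich kept cells by number only, since the barcodes differ. The comparisons above did not use these barcodes, and the rule for them was set after the data were seen.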

How the results depend on the processing

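With 1 library per gate no library could be left out, and no value speaks to the spread between embryos. No paired analysis was possible because each group holds 1 library. Of the values recomputed for whole comparisons, 199 stayed close and 45 moved, and the signs that changed were those of list medians of 0.15 or less in size. Of those for single genes 205 stayed close, 22 moved and 1 turned: the log2 ratio of high to low for pcna was -1.77 without the highest Scrublet scores. The causes were not tested. The minimums of 20 and 200 UMIs cannot change the ratio of a single gene, so those values stayed close by construction. A ratio or share stayed close if it lay within the interval of its main value. For a list median this was the interval of the gene nearest to the median, not one of the list. Genes past 2-fold between the gates were 36 higher and 16 lower. They numbered 24 and 25 with the median of ratios, and 20 and 23 without the highest Scrublet scores. At a minimum of 20 UMIs they were 166 and 122, at 200 UMIs 6 and 1, and with equal weight per cell 55 and 34. The share of higher genes among them was 69.2%, 49.0% with the median of ratios and 46.5% without the highest Scrublet scores. The median of ratios moved the median of all genes to -0.07. List medians between the gates moved to -0.023 (thin filament), 0.30 (thick filament), 0.50 (fast) and 0.14 (energy) with the median of ratios. They moved to 0.53 (thick filament), -0.31 (slow), 0.72 (fast) and 0.055 (chaperones) without the highest Scrublet scores, and to 0.34 (thin filament), 0.57 (thick filament), 1.51 (slow) and 0.47 (energy) without slow-rich cells. With equal weight per cell they were 0.14 (thick filament), 0.44 (fast) and 0.13 (energy), and energy was 0.21 on totals without mitochondrial and ribosomal genes and 0.18 at 200 UMIs. Against other cells, a minimum of 200 UMIs gave 390 higher and 2916 lower genes (low) and 415 higher (high), and cluster 2 alone as comparison gave 1748 lower (low) and 490 higher and 1461 lower (high). Highest against lowest cells by sarcomere share, with 2 groups in place of 3, gave -1.16 for myog and -0.57 for proliferation in the low library and 2.36 and 2.57 for energy. Energy was 2.99 and 3.29 on totals of all genes, 2.68 and 3.26 without slow-rich cells and 3.2 (high) without the highest Scrublet scores. Proliferation in the high library was -3.23 with all cells and -0.16 without the highest Scrublet scores. Cells with slow fibre genes numbered 14 and 18 at 5 or more UMIs, 36 and 37 at 2 or more, and 13 and 8 at 50 or more. The share of low cells with 2 proliferation UMIs was 5.56% when thinned to 2000 UMIs.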

Other observations

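Hox genes, which give cells a position along the body axis, did not go one way. Against other cells, 4 of 37 tested Hox genes were at least 2-fold higher and 15 lower in the low library. In the high library 9 of 34 were higher and 7 lower, and the median log2 ratios were -0.44 and -0.26. Of all genes, 7.77% were higher and 47.8% lower in the low library, and 8.41% and 45.8% in the high library. The Hox counts of the low library lay near these shares. Among the higher ones, hoxa11b had 123 (low) and 65 (high) UMIs, 146 and 93.0 CPM against 52.6 and 34.0 CPM in other cells, log2 ratios of 1.47 and 1.45. The genes hoxd12a (25 and 23 UMIs, 1.33 and 1.99) and hoxb10a (36 and 19 UMIs, 1.58 and 1.40) were higher as well, whereas hoxb3a had 21 and 38 UMIs, with log2 ratios of -2.14 (-2.83 to -1.52) and -0.37 (-0.88 to 0.09), the second with an interval that includes 0. The 48 Hox genes summed to 769 and 681 CPM, against 871 and 615 CPM in the other cells. The list was added after the values were seen, and these values are descriptions.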
